A study of Arabidopsis thaliana with 8 samples.

Results

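The 42 genes described here are SAUR (small auxin-up RNA) genes of Arabidopsis thaliana, taken by their locus identifiers from a table of raw read counts for 33602 genes. They comprise the SAUR19-24 clade (6 genes), the SAUR26-28 clade (3), the SAUR61-68 clade (7), members of the SAUR1-16 group (10), the SAUR50-54 group (5), the SAUR41 subfamily (4) and 7 single members. Whole seedlings of 2 hybrids were profiled by RNA sequencing, C24xCol (called the Col hybrid) and C24xpif4-101 (called the pif4 hybrid). C24 and Col are natural accessions, and pif4-101 is a mutant allele of PIF4, a transcription factor gene of warmth and shade growth. All seeds germinated at 22 °C on half-strength Murashige and Skoog medium in cycles of 8 h light and 16 h dark. They then grew at either 22 °C or 27 °C and were collected 4 or 7 days after sowing at ZT0, that is 0 h after lights on. Seedlings of an experiment were pooled before RNA extraction. Each of the 8 conditions had 1 library, so no condition had a replicate and the spread between pools of a condition is unknown.

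SAUR genes encode small proteins, and many of their transcripts accumulate within minutes of auxin application. The best studied members, of the SAUR19 clade, bind and inhibit PP2C.D phosphatases at the plasma membrane. This keeps proton pumps (H+-ATPases) phosphorylated and active, which acidifies the cell wall and promotes cell expansion. Auxin response factors (ARFs), PIF4 and related factors are known to act on SAUR promoters in the hypocotyl. Other members are known from cotyledons, roots or senescing leaves, and some respond to light rather than to auxin.

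Close paralogs limit how well reads can be assigned, and the SAUR19-24 clade is the clearest case. Its genes lie in tandem on chromosome 5, and their coding sequences shared 87.7% to 95.2% of bases pair by pair (median 91.2%). The first 90 coding bases of 4 of them are shown 5′ to 3′ from the TAIR10.1 assembly to let the similarity be seen. Capitals mark the 14 positions at which the 4 sequences are not all alike.
SAUR19: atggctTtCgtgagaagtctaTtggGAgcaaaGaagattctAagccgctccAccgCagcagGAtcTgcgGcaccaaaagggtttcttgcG
SAUR22: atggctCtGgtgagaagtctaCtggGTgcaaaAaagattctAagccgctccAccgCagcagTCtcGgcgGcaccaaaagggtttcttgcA
SAUR23: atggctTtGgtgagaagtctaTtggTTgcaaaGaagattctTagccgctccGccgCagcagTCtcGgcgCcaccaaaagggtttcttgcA
SAUR24: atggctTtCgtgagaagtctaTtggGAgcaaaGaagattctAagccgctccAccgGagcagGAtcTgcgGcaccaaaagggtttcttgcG
SAUR24 differed from SAUR19 at 13 of 273 coding bases, SAUR23 at 19 and SAUR22 at 24. Every 50-base window of each transcript was also searched for in all other annotated transcripts. The share of windows found elsewhere was 18.5% for SAUR19, 7.11% for SAUR24, 5.83% for SAUR20, 5.19% for SAUR21, 2.63% for SAUR23 and 0.573% for SAUR22. With 100-base windows it was 0 for all 6. SAUR22 thus had the fewest shared windows of its clade, and SAUR19 the most.

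In the SAUR61-68 clade, SAUR62, SAUR63 and SAUR67 shared 23.2%, 29.3% and 25.1% of their 50-base windows with other transcripts, namely each other, SAUR75 and, for SAUR63 and SAUR67, AT1G29435. At 100 bases they still shared 8.57%, 18.9% and 13.2%. The 3 SAUR26-28 genes shared none. Counts of these 3 SAUR61-68 genes, and to a lesser degree of SAUR19, are therefore uncertain to the extent that reads were as short as these windows, since the read length is not given in the sources used here. SAUR63, SAUR64, SAUR8 and SAUR31 overlap an annotated gene on the opposite strand, and SAUR6 overlaps SAUR7 on the same strand. SAUR31 shared 37.4% of its 50-base windows with other transcripts, among them its opposite-strand neighbour AT4G00883. Strand use in counting is not stated, so the 4 genes with an opposite-strand partner are uncertain too, and the overlap of SAUR6 with SAUR7 leaves SAUR6 uncertain whatever the strand setting.

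The sequence just before the gene start was examined for short motifs that are bound by PIF proteins or by ARFs. The motifs were CACGTG (the G-box), CATGTG (the PBE-box), and the auxin response elements TGTCTC and TGTCGG. Both strands were searched in the 250 bases before each annotated gene start, and none of the 41 sites found in the SAUR genes overlapped another. Below, the windows of SAUR22 (TAIR10.1 chr5:5975088-5975337, minus strand), SAUR62 (chr1:10303419-10303668, minus strand), SAUR66 (chr1:10320761-10321010, plus strand) and SAUR14 (chr4:18125560-18125809, minus strand) are printed 5′ to 3′ along the gene. These genes were chosen because the comparisons below turn on them, and capitals mark motif matches on either strand.
SAUR22: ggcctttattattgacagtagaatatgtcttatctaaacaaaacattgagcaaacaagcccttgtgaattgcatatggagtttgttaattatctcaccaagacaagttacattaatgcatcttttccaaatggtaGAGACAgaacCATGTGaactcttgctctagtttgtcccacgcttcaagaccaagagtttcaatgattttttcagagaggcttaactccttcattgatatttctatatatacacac
SAUR62: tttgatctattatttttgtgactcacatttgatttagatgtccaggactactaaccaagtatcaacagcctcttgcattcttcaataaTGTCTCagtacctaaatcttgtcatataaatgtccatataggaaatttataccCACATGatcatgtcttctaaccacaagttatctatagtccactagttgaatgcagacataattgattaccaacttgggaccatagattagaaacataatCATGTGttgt
SAUR66: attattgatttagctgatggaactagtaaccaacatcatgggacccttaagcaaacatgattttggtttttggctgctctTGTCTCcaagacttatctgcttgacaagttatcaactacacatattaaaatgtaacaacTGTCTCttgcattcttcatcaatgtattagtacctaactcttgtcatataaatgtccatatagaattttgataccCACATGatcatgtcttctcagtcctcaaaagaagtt
SAUR14: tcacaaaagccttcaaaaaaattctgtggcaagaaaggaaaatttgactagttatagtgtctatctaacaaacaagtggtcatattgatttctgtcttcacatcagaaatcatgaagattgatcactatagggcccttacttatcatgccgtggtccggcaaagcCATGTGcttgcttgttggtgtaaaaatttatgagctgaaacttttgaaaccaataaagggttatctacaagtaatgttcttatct
CATGTG (or its reverse complement CACATG) stood in the windows of 22 of 42 SAUR genes (52.4%), against 11.1% of 27443 protein-coding genes. By group, it was in 7 of 7 SAUR61-68 genes, 3 of 3 SAUR26-28 genes, 8 of 10 SAUR1-16 genes and 3 of 6 SAUR19-24 genes. It was in 1 of 5 SAUR50-54 genes, 0 of 4 SAUR41 genes and 0 of 7 single members. The 30 sites had a median position of −99.5 bases relative to the gene start, and 21 lay in the nearer 125 bases. CACGTG was in 1 gene, SAUR59, against 6.49% of all protein-coding genes. TGTCTC was in 6 genes (14.3%, against 10.9%) and TGTCGG in 2 (4.76%, against 4.16%). Tandem paralogs share ancestry, so their windows are not independent of each other, and a match does not show that a factor binds there.

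**Figure D1:**
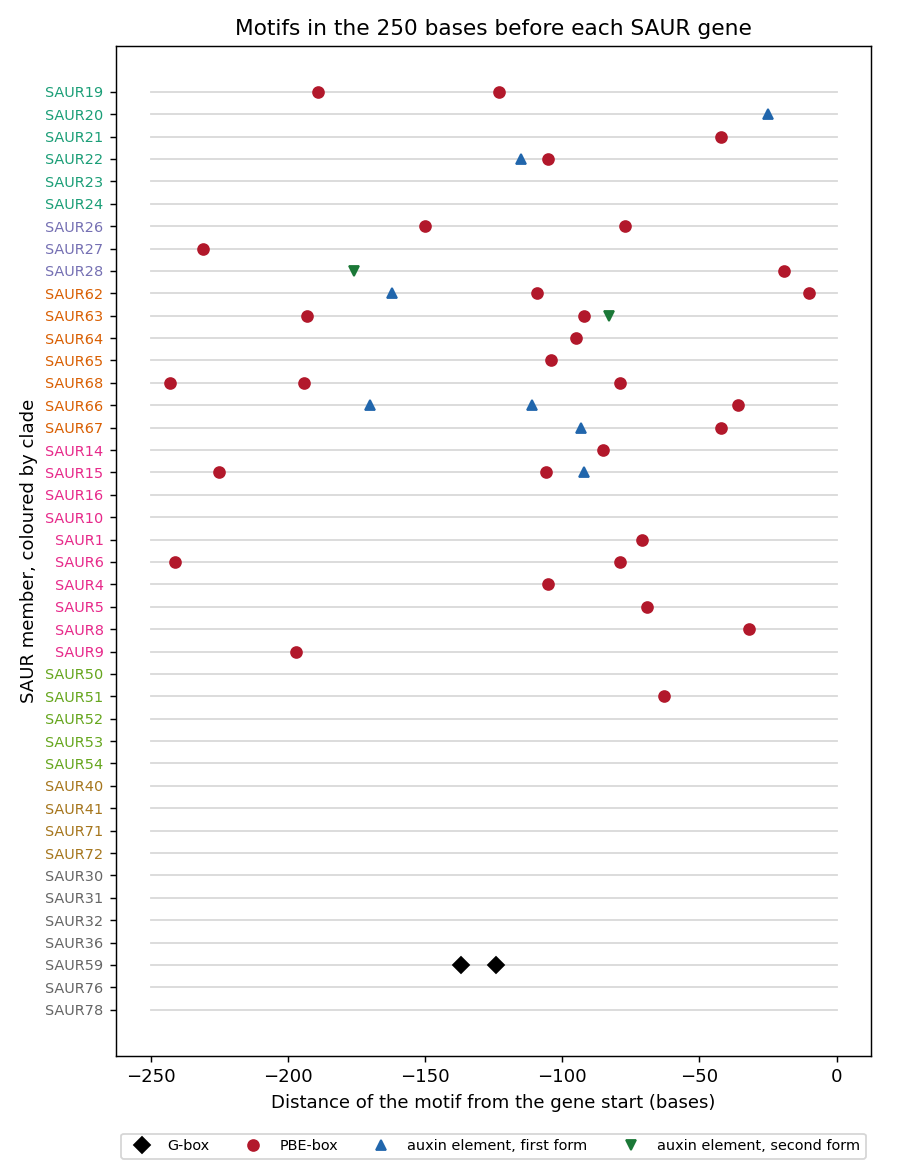
Position of each motif match in the 250 bases before the annotated start of each of the 42 SAUR genes. The x axis gives the distance from the gene start in bases, rows are genes coloured by clade, the diamond is the G-box, the circle the PBE-box, and the triangles are the auxin elements TGTCTC (pointing up, first form) and TGTCGG (pointing down, second form). The PBE-box matches fall in the SAUR19-24, SAUR26-28, SAUR61-68 and SAUR1-16 groups and in SAUR51, with none in the SAUR41 subfamily or the single members.

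Library totals ranged from 1664128 counts in the Col hybrid at 22 °C on day 4 to 25440561 in the Col hybrid at 27 °C on day 7, and SAUR genes together took 642 to 14627 counts. A count of 0 allows up to 2.15 CPM in the shallowest library (the level of 3 counts) and 0.106 CPM in the deepest, for counting error only. CPM here is edgeR's library-scaled count, with TMM factors that adjust libraries for composition. PIF4 itself was read at 62.5 to 97.3 CPM at 22 °C and 157 to 187 CPM at 27 °C, and it differed between the hybrids by −0.16 (log2, SE 0.11, edgeR adjusted p = 1). Its total does not separate normal from mutant copies. The shoot markers (3 of 3) and root markers (4 of 4) were read in every library, none at 0. The 27 °C library was the deeper one in 3 of the 4 temperature pairs.

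Of the 42 SAUR genes, 39 passed the filter on low counts and were tested. The other 3 were SAUR54 (95 counts over all 8 libraries), SAUR40 (19 counts) and SAUR30 (0 counts). SAUR54 was highest in the pif4 hybrid at 22 °C on day 7 (1.995 CPM) and had 0 counts in the shallowest library.

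Per kilobase of exon, the mean level over 8 libraries was highest for SAUR50 (64.9 CPM per kb), which with SAUR16 is known to promote cotyledon opening in light. SAUR16 (59.8), SAUR14 (56.2), SAUR78 (56.0) and SAUR32 (55.0) followed. These 5 lay close together, and the next were SAUR6 (26.0), SAUR21 (24.8) and SAUR22 (23.5). The SAUR19-24 genes lay between 17.0 and 24.8 CPM per kb, and the SAUR26-28 genes between 5.34 and 8.57. In the SAUR61-68 clade the range was 1.82 (SAUR68) to 22.9 (SAUR66). SAUR41 and its relatives were among the least abundant, at 0.214 to 4.71 CPM per kb.

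**Figure D2:**
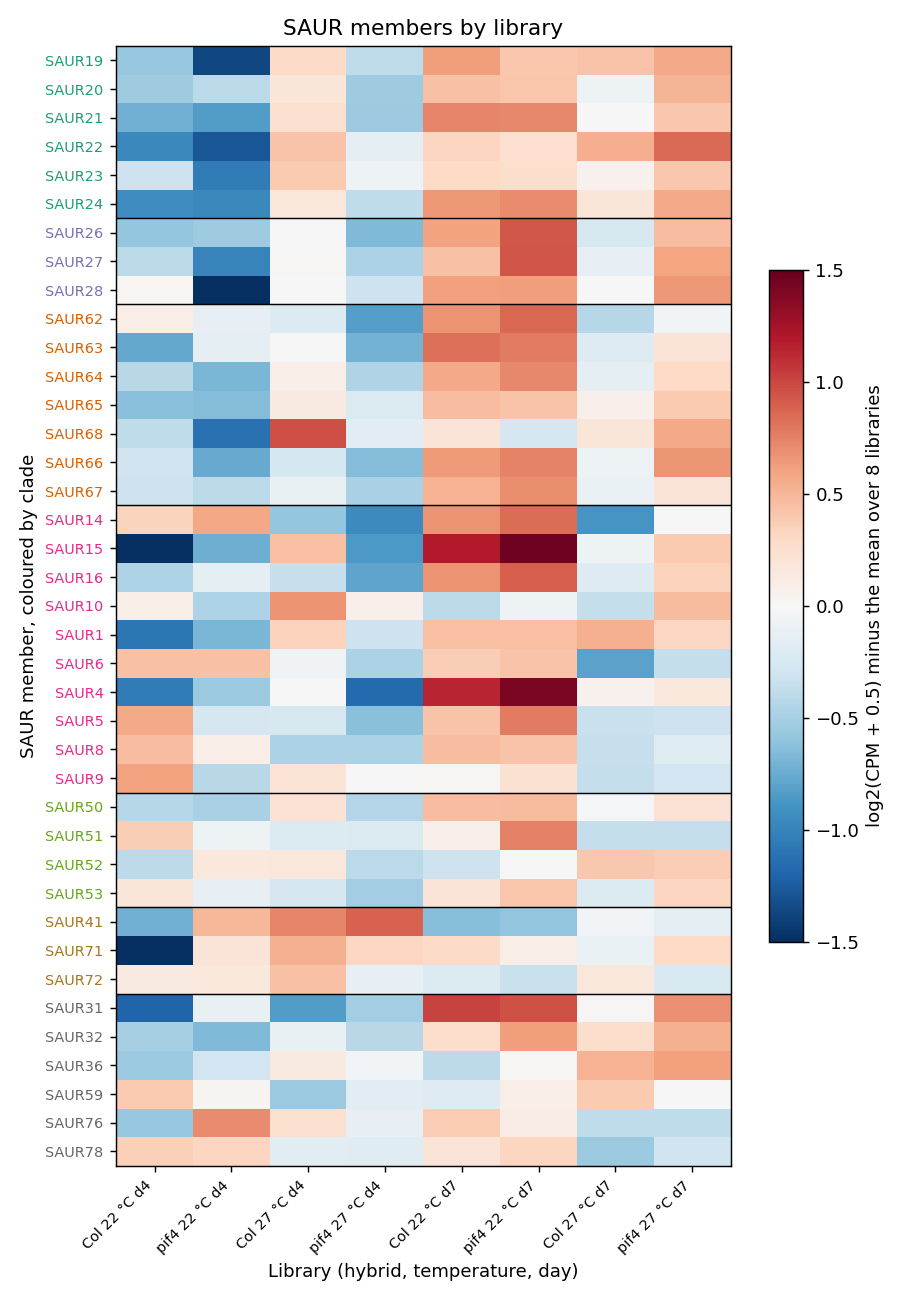
Level of the 39 tested SAUR genes in each of the 8 libraries, as log2(CPM + 0.5) minus the gene's mean over the libraries, with colours ending at ±1.5. Columns are single libraries and rows are genes ordered by clade. The day 7 columns are mostly red and the day 4 columns mostly blue for SAUR19-24, SAUR26-28 and SAUR61-68, whereas SAUR41 shows the opposite and the Col hybrid at 27 °C on day 7 is paler than the other day 7 columns.

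The temperature comparison asks which SAUR transcripts differed between warm and moderate growth. It set 4 libraries at 27 °C against 4 at 22 °C, matched by hybrid and age. The test was edgeR's quasi-likelihood test with hybrid and age as covariates and no term for the pair. Benjamini-Hochberg adjustment ran over 19829 genes. Warmth was accompanied by lower levels of 12 SAUR genes and higher levels of only 2, SAUR22 and SAUR36, while 25 of the 39 did not pass the adjusted p threshold of 0.05. Of all tested genes, 19.2% were called lower and 19.5% higher (38.7% in either direction), so higher calls were rarer among the SAUR genes than in the background and lower calls more frequent, a difference not tested. Median log2 changes were −0.14 for the 39 genes and 0.01 for all genes. The lower calls were 6 of 10 SAUR1-16 genes, 2 of 7 SAUR61-68 genes, 1 of 4 tested SAUR50-54 genes and 3 of 6 tested single members. Of the SAUR19-24 genes 1 of 6 passed, as higher, and none of the 3 SAUR26-28 genes or the 3 tested SAUR41 genes passed. SAUR26 was called lower only without the Col hybrid at 27 °C on day 4 (−0.57, edgeR adjusted p = 0.0135).

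In the following, the 4 values of each hybrid stand in the order 22 °C and 27 °C on day 4, then 22 °C and 27 °C on day 7. SAUR14 (AT4G38840), one of the light-induced cotyledon SAURs, was at 37.2, 19.6, 47.2 and 15.8 CPM in the Col hybrid and at 44.4, 14.9, 53.2 and 29.4 CPM in the pif4 hybrid. All 4 libraries at 27 °C were below all 4 at 22 °C. It fell by 1.23 (log2, SE 0.16, n = 4 libraries per temperature, edgeR adjusted p = 0.00015), the steepest drop among the 12. SAUR6 (AT2G21210), of the same group, was at 47.2, 33.5, 45.1 and 19.7 CPM in the Col hybrid and 47.4, 24.96, 47.1 and 26.9 CPM in the pif4 hybrid. Its 27 °C libraries were again all lower, by a log2 change of −0.87 (SE 0.13, edgeR adjusted p = 0.000434). SAUR16 (AT4G38860), its most abundant group member, was at 42.2, 45.8, 93.4 and 50.8 CPM in the Col hybrid and 53.1, 33.5, 109 and 74.0 CPM in the pif4 hybrid. The temperature groups of SAUR16 overlapped, and it was lower at 27 °C in 3 of 4 pairs (−0.52, SE 0.15, edgeR adjusted p = 0.0163).

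SAUR5 and SAUR4 (AT4G34800), low-level members of the same group, had the next steepest drops. SAUR5 (AT4G34810) was at 2.86, 1.41, 2.54 and 1.31 CPM in the Col hybrid and 1.40, 0.974, 3.38 and 1.32 CPM in the pif4 hybrid. It was lower at 27 °C in each pair (−0.99, SE 0.29, edgeR adjusted p = 0.0165), with 4 counts in the shallowest library. SAUR4 was at 1.43, 3.48, 8.31 and 3.67 CPM in the Col hybrid and 2.21, 1.28, 10.14 and 3.97 CPM in the pif4 hybrid. The Col hybrid on day 4 ran the other way, on 2 counts at 22 °C, and the other 3 pairs fell (−0.96, SE 0.31, edgeR adjusted p = 0.0259). SAUR8 fell by 0.84 (SE 0.22), in all 4 pairs.

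In the SAUR61-68 clade, whose member SAUR63 is known to promote hypocotyl and stamen filament elongation, SAUR62 and SAUR63 were called lower. SAUR62 (AT1G29430) was at 15.7, 12.7, 23.7 and 10.8 CPM in the Col hybrid and 13.4, 8.05, 27.0 and 14.3 CPM in the pif4 hybrid. It was lower at 27 °C in every pair (−0.83, SE 0.18, edgeR adjusted p = 0.00339). SAUR66 (AT1G29500), the most abundant, was at 16.5, 16.9, 32.2 and 19.3 CPM in the Col hybrid and 11.9, 12.8, 34.6 and 32.7 CPM in the pif4 hybrid, with a change of −0.18 (SE 0.19) that did not pass. SAUR67 (AT1G29510) was at 11.4, 13.3, 20.8 and 13.4 CPM in the Col hybrid and 10.8, 10.1, 23.6 and 16.5 CPM in the pif4 hybrid, and it did not pass either (−0.34, SE 0.16), although it did with the 4 matched pairs as a block (−0.37, edgeR adjusted p = 0.0434) and without the Col hybrid at 27 °C on day 4 or the pif4 hybrid at 22 °C on day 4 (adjusted p = 0.00621 and 0.0493). SAUR62, SAUR63 and SAUR67 share sequence windows, as given above, so how the drop divides between them is uncertain.

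SAUR22 (AT5G18050) was the only member of its clade called in this comparison. It was at 7.87, 21.5, 19.9 and 23.3 CPM in the Col hybrid and 6.17, 14.2, 18.9 and 28.9 CPM in the pif4 hybrid. It was higher at 27 °C in all 4 pairs, with a fitted log2 change of 0.74 (SE 0.19, edgeR adjusted p = 0.00991), although the 2 temperature groups overlapped across ages. SAUR21 (AT5G18030), the most abundant of the clade, was at 11.4, 22.7, 32.1 and 19.2 CPM in the Col hybrid and 10.5, 13.0, 32.0 and 25.6 CPM in the pif4 hybrid. It was higher at 27 °C in both day 4 pairs and lower in both day 7 pairs (−0.09, SE 0.23). SAUR23 (AT5G18060) was at 11.4, 19.0, 17.8 and 15.0 CPM in the Col hybrid and 6.64, 13.6, 17.3 and 19.1 CPM in the pif4 hybrid, with a change of 0.33 (SE 0.21) that did not pass except without the Col hybrid at 27 °C on day 7 (0.61, adjusted p = 0.0137). SAUR19 did not pass either (0.33, SE 0.22, higher in 3 of 4 pairs), except in that same setting (0.64, edgeR adjusted p = 0.0203). SAUR20 and SAUR24 had changes of −0.06 and 0.06. Whether SAUR22 differed from the other members was not tested.

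SAUR22 took a larger part of its clade's reads in the warm. Its share of the summed SAUR19-24 counts was 16.4% and 17.6% in the Col hybrid and 16.3% and 17.2% in the pif4 hybrid at 22 °C, on day 4 and day 7. At 27 °C the same shares were 22.3% and 25.8%, and 23.1% and 24.9%. All 4 warm libraries lay above all 4 at 22 °C, and a share within a library does not depend on how libraries are scaled. These shares rest on the same counts as the call of SAUR22 above, so they are not separate evidence of its rise. SAUR22 was the clade's only called member, and its share was set out with that known. The share of the Col hybrid at 22 °C on day 4 rests on only 67 clade counts, so its counting error is large. The 0.573% of its windows that occur elsewhere in the transcriptome is the smallest value of the clade.

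The other gene that rose was SAUR36 (AT2G45210), known to promote leaf senescence. It was at 5.72, 9.56, 6.47 and 12.6 CPM in the Col hybrid and 6.98, 8.36, 8.76 and 13.5 CPM in the pif4 hybrid. It was higher at 27 °C in every pair (0.65, SE 0.16, edgeR adjusted p = 0.0062), and the groups overlapped only in the pif4 hybrid, where 8.76 CPM at 22 °C on day 7 exceeded 8.36 CPM at 27 °C on day 4. SAUR78 (AT1G72430), which is known to bind ethylene receptors, was at 84.4, 58.9, 75.6 and 44.5 CPM in the Col hybrid and 82.3, 58.1, 82.2 and 53.5 CPM in the pif4 hybrid. All 4 warm libraries lay below all 4 at 22 °C, with log2 differences of −0.76 to −0.50 in the pairs (fitted change −0.60, SE 0.10, edgeR adjusted p = 0.000697). SAUR76, a related gene, fell by 0.81 (SE 0.30) and SAUR31 by 0.52 (SE 0.16). SAUR59 did not pass (−0.02, SE 0.20).

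In the SAUR50-54 group, SAUR50 (AT4G34760) was at 41.5, 65.4, 77.2 and 55.5 CPM in the Col hybrid and 39.9, 41.2, 78.0 and 65.2 CPM in the pif4 hybrid. Its temperature groups overlapped (−0.05, SE 0.17), and it was called lower only without the Col hybrid at 27 °C on day 4 (−0.24, adjusted p = 0.0454). SAUR51 (AT1G75580) was at 4.29, 2.72, 3.41 and 2.40 CPM in the Col hybrid and 3.03, 2.70, 5.76 and 2.38 CPM in the pif4 hybrid, lower at 27 °C in each pair (−0.67, SE 0.24, edgeR adjusted p = 0.0456). SAUR53 (AT1G19840) was at 3.58, 2.50, 3.59 and 2.61 CPM in the Col hybrid and 2.79, 1.99, 4.27 and 3.97 CPM in the pif4 hybrid, lower in each pair but not past the threshold (−0.34, SE 0.22).

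Single libraries mattered for the counts of calls. Leaving out the Col hybrid at 22 °C or at 27 °C on day 7 left 5 lower calls, and leaving out the pif4 hybrid at 27 °C on day 4, at 22 °C on day 7 or at 27 °C on day 7 left 6. Higher calls numbered 5 without the Col hybrid at 27 °C on day 7. They numbered 1 without the Col hybrid at 22 °C on day 7, the pif4 hybrid at 22 °C on day 4, or the pif4 hybrid at 27 °C on day 7. SAUR14, SAUR6, SAUR62 and SAUR78 kept their calls in each setting that tested them, and SAUR22 lost its call without 1 of 2 pif4 hybrid libraries (22 °C on day 4 or 27 °C on day 7, highest adjusted p = 0.0591). SAUR36 lost its call without the Col hybrid at 22 °C on day 7, and also when every library was thinned to the depth of the shallowest (adjusted p = 0.571). SAUR16, SAUR4, SAUR5, SAUR8, SAUR31, SAUR51, SAUR63 and SAUR76 lost theirs without at least 2 of the 8 libraries. With the library total as a covariate 4 genes were lower, and the DESeq2 Wald test gave 8 lower and 2 higher. The share of all genes called in each of these settings is not given here, so a loss particular to SAUR genes cannot be read from the counts.

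Organ markers were set beside these changes without a test. The 3 shoot markers summed to 5438 to 18710 CPM at 22 °C and 3355 to 7182 CPM at 27 °C, and the 4 root markers to 1831 to 3406 and 1671 to 2359 CPM. The shoot sum was lower at 27 °C in 4 of 4 pairs and the root sum in 3 of 4. In the pif4 hybrid on day 7 the shoot sum was 5438 and 5301 CPM at 22 °C and 27 °C, and the root sum was higher in the warm (1831 and 2359 CPM). Their part in the SAUR changes was not tested, and in whole seedlings fewer cells of a type and less RNA per cell cannot be told apart.

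**Figure D3:**
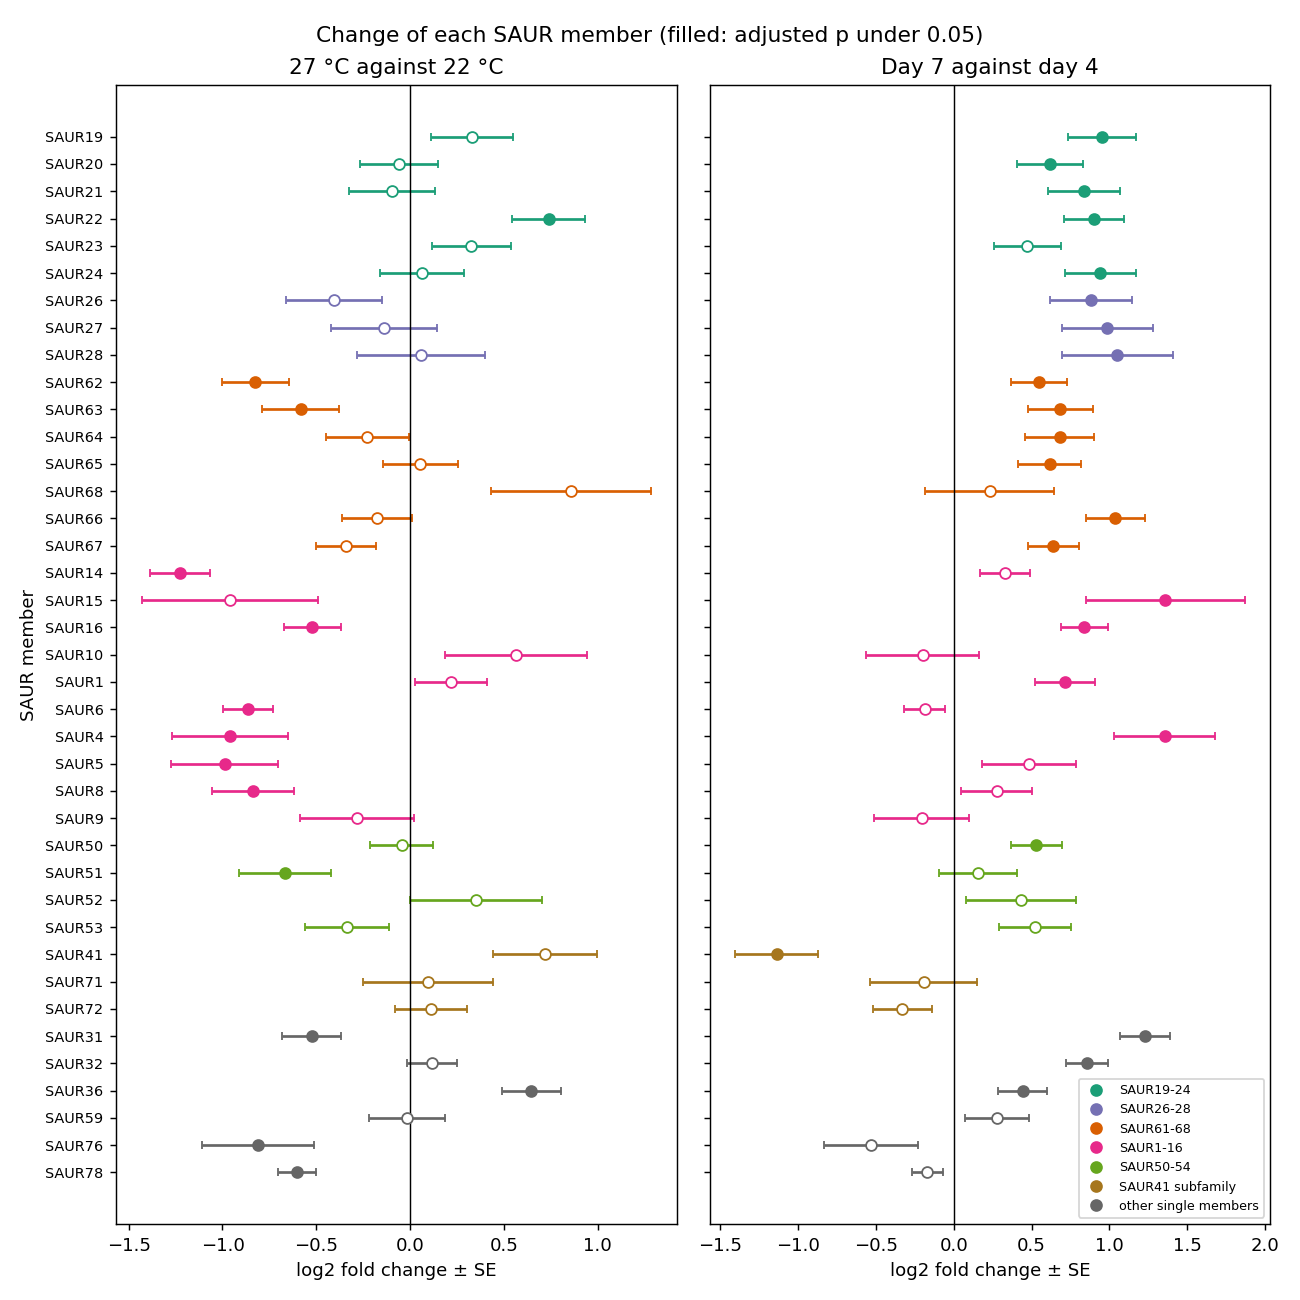
Log2 fold change of each of the 39 tested SAUR genes, with its standard error, for 27 °C against 22 °C (left) and for day 7 against day 4 (right), each with 4 libraries against 4. Colours give the clade and filled points passed an adjusted p of 0.05 in edgeR. On the left 12 filled points lie below 0, 6 of them in the SAUR1-16 group, and SAUR22 and SAUR36 lie above it. On the right 22 lie above 0 and SAUR41 alone lies below.

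The clades were next compared by their summed counts, without a test. In the order used above, the SAUR1-16 sum was 142, 122, 218 and 109 CPM in the Col hybrid and 159, 87.3, 245 and 153 CPM in the pif4 hybrid. The warm library was the lower one in every pair, with 27 °C to 22 °C ratios of 0.859, 0.498, 0.551 and 0.625 in the same order. The SAUR19-24 sum was 47.9 and 96.2 CPM, then 113 and 90.2 CPM, in the Col hybrid, and 38.0 and 61.5 CPM, then 110 and 116 CPM, in the pif4 hybrid. Its ratios were 2.01, 0.80, 1.62 and 1.06. The warm library was thus higher on day 4 in both hybrids and near or below the 22 °C library on day 7.

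The balance between both clades separated the temperatures, and it was picked out after its values were seen. Within a library, the ratio of SAUR19-24 to SAUR1-16 counts was 0.337 and 0.518 in the Col hybrid and 0.239 and 0.447 in the pif4 hybrid at 22 °C, on day 4 and day 7. At 27 °C it was 0.787 and 0.831 in the Col hybrid and 0.705 and 0.756 in the pif4 hybrid. The groups did not overlap, and warm libraries exceeded their partners 2.34-fold and 1.61-fold in the Col hybrid and 2.94-fold and 1.69-fold in the pif4 hybrid. Without SAUR22 and SAUR14 the ratio was 0.278 to 0.545 at 22 °C and 0.653 to 0.727 at 27 °C. The ratio of SAUR61-68 to SAUR1-16 counts was 0.358 to 0.567 at 22 °C and 0.597 to 0.657 at 27 °C, a smaller gap that also left no overlap. As a share of all SAUR counts, SAUR1-16 alone took 29.37% to 34.61% at 22 °C and 22.07% to 24.03% at 27 °C. For SAUR19-24 these shares were 8.28% to 15.2% and 15.99% to 18.61%. Each clade's share thus separated the temperatures by itself, so the gap in the ratio does not belong to SAUR19-24 alone. Inside the SAUR1-16 group, the ratio of SAUR14 to SAUR16 was 0.489 to 0.881 at 22 °C and 0.310 to 0.446 at 27 °C. None of these ratios and shares has a replicate within a condition.

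**Figure D4:**
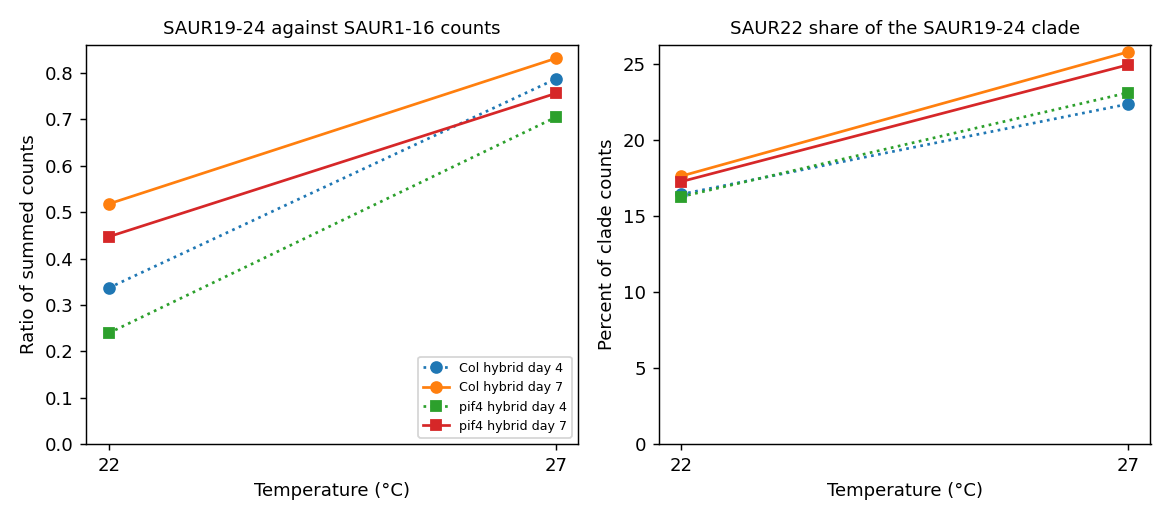
Ratio of summed SAUR19-24 counts to summed SAUR1-16 counts (left) and SAUR22's percent of the SAUR19-24 counts (right) against growth temperature in °C, with 1 library per point and lines joining libraries of the same hybrid and age. Every line rises, with ratios of 0.239 to 0.518 at 22 °C and 0.705 to 0.831 at 27 °C and shares of 16.3% to 17.6% and 22.3% to 25.8%.

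The age comparison asks how levels on day 7 differed from those on day 4. SAUR transcripts were mostly more abundant on day 7: 22 of the 39 tested genes were called higher and 1, SAUR41 (AT1G16510), lower, and 16 did not pass. Among all tested genes 24.8% were called higher and 24% lower (48.8% in all). Median log2 changes were 0.55 for the 39 genes and −0.0015 for all genes. Higher calls were 5 of 6 SAUR19-24 genes, 3 of 3 SAUR26-28 genes, 6 of 7 SAUR61-68 genes and 4 of 10 SAUR1-16 genes. In the SAUR50-54 group 1 of 4 tested genes was called higher, in the SAUR41 subfamily 0 of 3, and among single members 3 of 6.

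SAUR15 (AT4G38850), also called SAUR-AC1, is a classical auxin-induced SAUR. It was at 0, 1.96, 3.59 and 1.20 CPM in the Col hybrid and 0.582, 0.487, 4.43 and 1.85 CPM in the pif4 hybrid, and the 0 in the shallowest library allows up to 2.15 CPM. It was higher on day 7 in 3 of 4 pairs and lower in the Col hybrid at 27 °C (fitted change 1.36, SE 0.51, edgeR adjusted p = 0.0421). SAUR4, whose levels are given above, was higher on day 7 in all 4 pairs, by 0.08 to 2.42 log2 units (1.35, SE 0.32, edgeR adjusted p = 0.00413). SAUR31 (AT4G00880) was at 5.72, 7.49, 28.4 and 13.9 CPM in the Col hybrid and 12.7, 9.47, 27.2 and 22.4 CPM in the pif4 hybrid. Its 4 day 7 libraries lay above its 4 day 4 libraries (1.23, SE 0.16, edgeR adjusted p = 0.000112), and its opposite-strand neighbour makes its counts uncertain. SAUR32 (AT2G46690), which is known to act in apical hook opening, was at 32.9, 43.3, 56.6 and 56.3 CPM in the Col hybrid and 29.5, 34.9, 72.9 and 68.1 CPM in the pif4 hybrid. It too showed no overlap between ages (0.86, SE 0.14, edgeR adjusted p = 0.000331).

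The SAUR26-28 genes, which have been linked to growth variation in warmth among accessions, all rose with age. SAUR26 (AT3G03850) was at 3.58, 5.65, 8.75 and 4.66 CPM in the Col hybrid and 3.73, 3.36, 11.1 and 7.94 CPM in the pif4 hybrid. SAUR27 (AT3G03840) was at 3.58, 4.996, 6.82 and 4.48 CPM in the Col hybrid and 2.21, 3.41, 9.87 and 7.68 CPM in the pif4 hybrid. SAUR28 (AT3G03830) was at 2.86, 2.82, 4.55 and 2.82 CPM in the Col hybrid and 0.582, 2.17, 4.60 and 4.68 CPM in the pif4 hybrid. In all 3 the day 7 library was the higher one in 3 of 4 pairs and not in the Col hybrid at 27 °C. Fitted changes were 0.88 (SE 0.26), 0.99 (SE 0.29) and 1.05 (SE 0.36). Each of these 3 calls was lost without the pif4 hybrid at 22 °C or 27 °C on day 4, or without the pif4 hybrid at 27 °C on day 7, and those of SAUR26 and SAUR28 also without the pif4 hybrid at 22 °C on day 7.

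SAUR66 rose by 1.04 (SE 0.19, edgeR adjusted p = 0.000801) and SAUR16 by 0.84 (SE 0.15, edgeR adjusted p = 0.000736). Both were higher on day 7 in 4 of 4 pairs, by only 0.19 and 0.15 in the Col hybrid at 27 °C. Within SAUR19-24, SAUR19, SAUR22 and SAUR24 were higher on day 7 in 4 of 4 pairs, with fitted changes of 0.90 to 0.95. In the Col hybrid at 27 °C these 3 differed by only 0.15, 0.11 and 0.01. SAUR20 and SAUR21 were higher in 3 of 4 pairs, and SAUR23 did not pass (0.47, SE 0.21). The warmth calls of 4 genes held in each setting. Of these, SAUR14, SAUR6 and SAUR78 did not pass for age (0.33, −0.19 and −0.17). SAUR62 was called higher on day 7 (0.55, SE 0.18, edgeR adjusted p = 0.0231), a call lost without 5 of the 8 libraries, taken singly. SAUR14 was called higher on day 7 with the library total as a covariate (0.52, adjusted p = 0.0385) and without either Col hybrid library at 27 °C (adjusted p = 0.00638 and 0.0083 without day 4 and day 7). SAUR78 was called lower on day 7 when every library was thinned (−0.38, adjusted p = 0.0257). SAUR23 was called higher without filtering (adjusted p = 0.0347) and without either Col hybrid library at 27 °C (0.00655 and 0.00147). SAUR54, which the filter removes, was called higher without filtering (2.40, edgeR adjusted p = 6e-04). SAUR53 was called higher with the library total as a covariate (0.70, edgeR adjusted p = 0.0435). It was also called higher without the Col hybrid at 27 °C on day 4 (0.68, edgeR adjusted p = 0.0393).

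The SAUR41 subfamily behaved otherwise. SAUR41, whose protein is known to promote cell expansion, was at 0.715, 2.82, 0.787 and 1.45 CPM in the Col hybrid and 2.33, 3.19, 0.831 and 1.32 CPM in the pif4 hybrid. It was lower on day 7 in 3 of 4 pairs (−1.14, SE 0.27, edgeR adjusted p = 0.00358), and in the fourth the day 4 library held 1 count. SAUR72 (AT3G12830) was at 5.01, 6.30, 3.85 and 5.15 CPM in the Col hybrid and 5.12, 4.12, 3.49 and 3.79 CPM in the pif4 hybrid, lower in every pair without passing (−0.33, SE 0.19). SAUR71 (AT1G56150), known from the stele and the stomatal lineage, was at 0, 1.74, 1.40 and 0.953 CPM in the Col hybrid and 1.28, 1.42, 1.16 and 1.41 CPM in the pif4 hybrid. Outside the shallowest library, where 0 counts allow up to 2.15 CPM, its values ran from 0.953 to 1.74 CPM. Its age change did not pass (−0.19, SE 0.34).

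The rise with age was not alike in the 4 pairs. The median log2 difference between day 7 and day 4 over the 39 genes was 0.85 in the Col hybrid at 22 °C, 1.03 in the pif4 hybrid at 22 °C and 0.82 in the pif4 hybrid at 27 °C. In the Col hybrid at 27 °C it was −0.17, with 15 of 39 genes above 0. The summed SAUR level, 459 and 742 CPM on day 4 and day 7 in the Col hybrid at 22 °C, was 517 and 492 CPM at 27 °C. In the pif4 hybrid it was 458 and 811 CPM at 22 °C, and 385 and 637 CPM at 27 °C. The Col hybrid pair at 27 °C thus lacked the rise seen in the other 3 pairs. The library of the Col hybrid at 27 °C on day 7 is also the deepest of the 8, and condition and library cannot be told apart with 1 library each.

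Leaving out any 1 of the 4 pif4 hybrid libraries left 10 to 12 higher calls (10 and 11 without 22 °C and 27 °C on day 4, 12 and 11 without 22 °C and 27 °C on day 7). The share of all genes called in these refits is not given here, so a loss particular to SAUR genes cannot be read from them. SAUR19, SAUR22, SAUR24, SAUR66, SAUR16, SAUR1, SAUR4, SAUR31, SAUR32 and the lower call of SAUR41 held in each setting that tested them, and the other 13 calls were each lost without at least 1 library. SAUR15 lost its call without 6 of the 8 libraries, taken singly, and with the matched pairs as a block (adjusted p = 0.0553). The shoot markers summed to 4860 to 18710 CPM on day 4 and 3355 to 6858 CPM on day 7, and the root markers to 1822 to 3406 and 1671 to 2359 CPM. The root sum was almost all PYK10 (1645 of 1671 CPM in the Col hybrid at 27 °C on day 7). The root markers CASP1, SHV2 and EXPA7 were lower on day 7 in every pair. SHV2 went from 7.87 to 1.14 CPM in the Col hybrid at 22 °C and from 4.16 to 1.15 CPM in the pif4 hybrid at 27 °C. The part of these markers in the rise of SAUR levels was not tested.

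**Figure D5:**
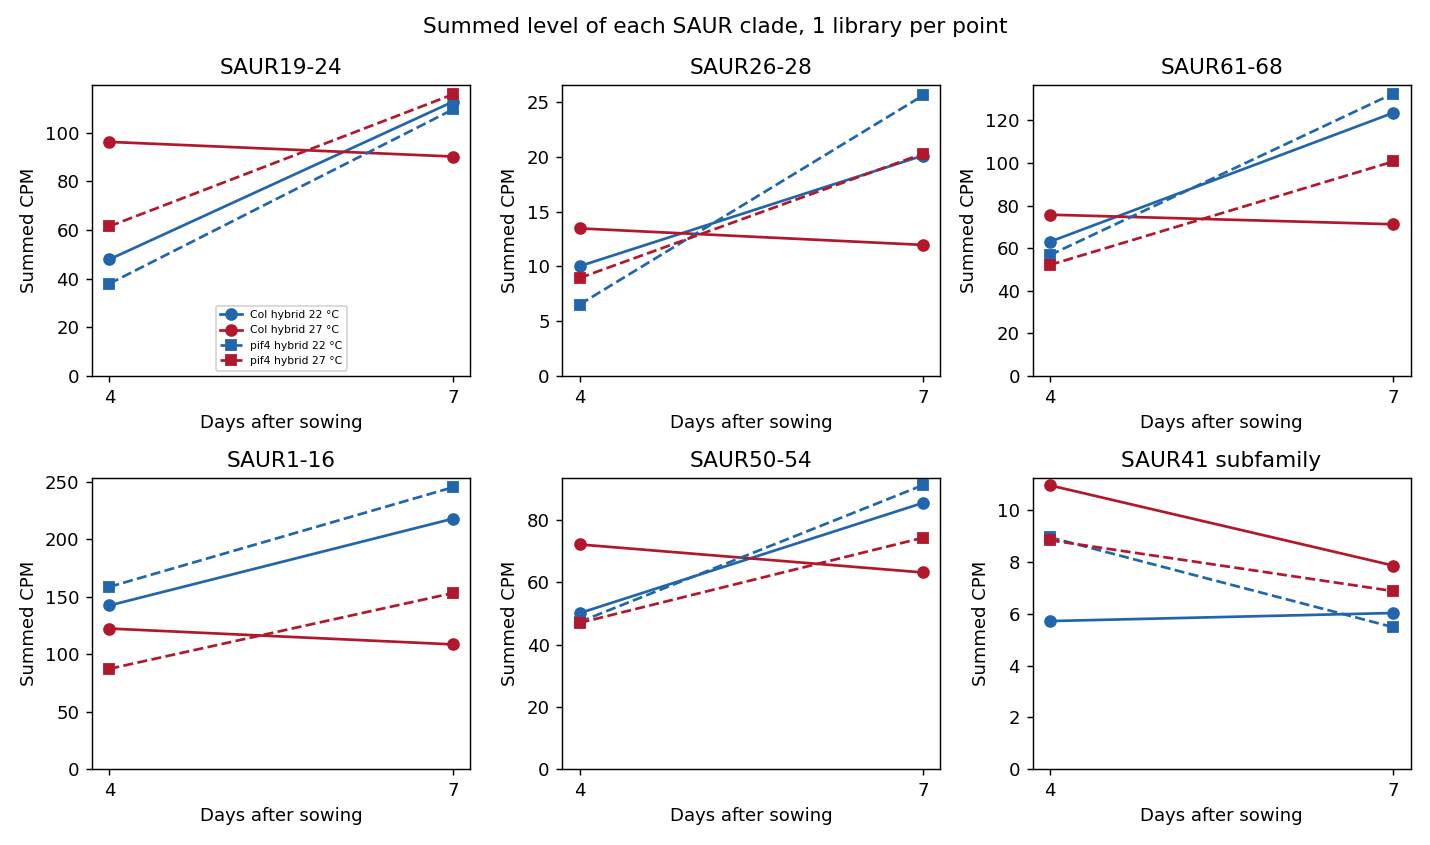
Summed CPM of 6 SAUR clades on day 4 and day 7, with 1 library per point, circles and solid lines for the Col hybrid, squares and dashed lines for the pif4 hybrid, blue for 22 °C and red for 27 °C. In the first 5 clades the blue lines and the red dashed line rise, whereas the red solid line (Col hybrid at 27 °C) falls slightly, for SAUR19-24 from 96.2 to 90.2 CPM.

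The hybrid comparison asks whether the pif4-101 parent changed SAUR levels. No SAUR gene passed (0 of 39), and 1 of all 19829 genes did (0.00504%). At an unadjusted p under 0.05, 1 SAUR gene was past the threshold, SAUR31 (0.36, SE 0.16, higher in the pif4 hybrid in 3 of 4 pairs), against 4.01% of all genes, and the DESeq2 Wald test called 0. Fitted differences ran from −0.58 to 0.36 with a median of −0.03. By condition, the median log2 difference (pif4 hybrid minus Col hybrid) was −0.06 for 22 °C and −0.48 for 27 °C among day 4 seedlings. Among day 7 seedlings it was 0.11 and 0.34. Median SAUR levels were thus lower in the pif4 hybrid at 27 °C on day 4 and higher at 27 °C on day 7, which an average over the 4 pairs does not show.

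Whether the response to warmth differed between hybrids was tested as an interaction. It called 0 of 39 SAUR genes, as of all genes (0%). At an unadjusted p under 0.05 it called 0 SAUR genes, against 0.948% of all genes, and DESeq2 called 0. For SAUR22 the hybrids' warmth effects differed by 0.09 (SE 0.41), and for SAUR14 by 0.08 (SE 0.34). The SE of this term was 0.22 (SAUR78) to 0.97 (SAUR15), and a p that misses the threshold does not show that the hybrids responded alike.

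The hybrid-by-age term, the age effect of the pif4 hybrid minus that of the Col hybrid, also called 0 of 39 SAUR genes, against 0.0908% of all genes. At an unadjusted p under 0.05, 19 SAUR genes were past the threshold, all with a positive term, against 4.79% of all genes in that direction. DESeq2 called 0. The term was above 0 for 35 of 39 SAUR genes, with a median of 0.67 against −0.02 for all genes. The SAUR26-28 genes had terms of 1.19 to 1.37, SAUR62 had 0.87 (SE 0.26) and SAUR32 had 0.62 (SE 0.21), each at an adjusted p of at least 0.573. All of these genes were read in the same 8 libraries, so their agreement in sign is not a set of independent observations.

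The age-by-temperature term, the warmth effect on day 7 minus that on day 4, called 0 of 39 SAUR genes, against 0.267% of all genes. At an unadjusted p under 0.05, 14 SAUR genes were past the threshold, all negative, against 4.61% of all genes in that direction. DESeq2 called 0. The 14 comprised 5 of 6 SAUR19-24 genes, 2 of 3 SAUR26-28 genes, 3 of 7 SAUR61-68 genes, 3 of 10 SAUR1-16 genes and 1 of 4 SAUR50-54 genes. SAUR24 had −1.22 (SE 0.36), SAUR21 −1.19 (SE 0.34), SAUR64 −1.08 (SE 0.35) and SAUR14 0.06 (SE 0.31). The adjusted p of these 4 genes was 0.274, 0.262, 0.342 and 0.976 in edgeR. The edgeR count of 0 did not hold when either pif4 hybrid library at 27 °C was left out. Each such refit left the Col hybrid alone at 27 °C on that day. Without the pif4 hybrid at 27 °C on day 4, SAUR21 had −1.78, SAUR24 −1.71 and SAUR64 −1.60. These are examples only, and genes of the SAUR26-28, SAUR1-16 and SAUR50-54 groups had negative terms in that refit too. Without the pif4 hybrid at 27 °C on day 7, SAUR21 had −1.52 and SAUR23 −1.38. With no filter on low counts 5 passed, and 1 passed when library totals entered the model. The 0.267% belongs to the full fit, so none of these refits has a share over all genes beside it. Over the 39 genes, the median warmth effect in Col hybrid seedlings was 0.64 on day 4 but −0.54 on day 7. In pif4 hybrid seedlings it was −0.10 on day 4 and −0.26 on day 7.

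Genes on either side of the SAUR proteins in the pathway were also read. Of the 9 PP2C.D phosphatases, which SAUR19 clade proteins inhibit, 1 was higher at 27 °C and 0 lower, namely AT5G02760 (0.92, SE 0.15, edgeR adjusted p = 0.000522). Of 11 plasma membrane H+-ATPases, 8 were tested, 2 were higher (HA8 by 0.64, SE 0.13, and HA3 by 0.33, SE 0.12) and 0 lower. Of 6 auxin receptors, 2 were higher (GRH1, or AFB1, by 0.40 and AFB3 by 0.36) and 0 lower. Of 5 activator ARFs, 3 were higher (ARF6 by 1.03, NPH4, or ARF7, by 0.78 and ARF19 by 0.48) and 0 lower. Among all tested genes 19.5% were called higher and 19.2% lower, so the counts for the phosphatases and H+-ATPases lie near the background, and no list was tested against it.

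With age, against 24.8% of all genes called higher and 24% lower, the same lists held more lower calls than higher ones. All 5 ARFs were lower on day 7 (median −0.72), as were 4 of 6 receptors and 5 of 8 tested H+-ATPases, with HA11 at −0.77 (SE 0.11) and HA2 at −0.72 (SE 0.16). Among the PP2C.D phosphatases 1 was higher and 2 were lower. The other 37 annotated SAUR loci were mostly weak, with 16 tested. In the warm 3 of these were higher (SAUR57 by 1.55, SAUR44 by 1.65 and SAUR46 by 1.01) and 4 lower, near the shares over all genes (19.5% and 19.2%). On day 7, 8 of the 16 were higher, against 24.8% of all genes, with SAUR49 at 1.74 (SE 0.20), and 0 were lower.

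Promoter motifs and calls were set side by side as a description. Of the 22 SAUR genes with CATGTG in the window, all were tested, 1 was higher and 8 lower in the warm, and 15 were higher and 0 lower on day 7. Of the 17 tested genes without it, 1 was higher and 4 lower in the warm, and 7 were higher and 1 lower on day 7. SAUR22 and SAUR14, which moved in opposite directions in the warm, each held 1 CATGTG site, at −105 and −85 bases from the gene start, and their windows are among those printed above. The motif and clade membership go together, so neither can be separated from the other here.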

How the data were processed

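The authors deposited raw counts per gene for 8 libraries, whole numbers that were not normalised. The submitters' processing notes list HTSeq 0.6.1p1, HISAT2, StringTie 1.3.5, Picard, FastQC 0.11.5 and the build TAIR10, with no roles or settings. Per the labels' protocols a stranded and an unstranded kit were used, without saying for which libraries, so kit and condition cannot be told apart. Reads with C24 alleles may map less well to a Col reference, which was not tested.

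Genes with at least 0.876 CPM (10 counts in the library of median size) in 4 of 8 libraries were kept, 19829 of 33602. Counts were scaled by TMM and tested with edgeR 4.0.16 (R 4.3.3, quasi-likelihood F-test, adjusted p under 0.05, Benjamini-Hochberg over all genes tested). The model held temperature, hybrid and age (4 residual degrees of freedom), and each interaction was added singly (3). P-values reflect only how these 8 pools vary. The standard error (SE) was taken as the absolute log2 change over the root of F. The code was tested on simulated data. DESeq2 1.42.0 and limma 3.58.1 (cyclic loess) served as alternatives, as did a block for the matched pairs.

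Names, gene positions and sequences came from RefSeq's TAIR10.1 annotation and genome. All 42 loci matched. The count table gives no coordinates, and AT1G29510 is called SAUR67 and AT1G29490 SAUR68 here after the synonyms. Values in each library are given for each clade's 3 members of highest mean CPM, the 3 highest and 3 lowest called changes with temperature and age, and for SAUR36 and SAUR78. Pathway lists name up to 3 genes with the smallest temperature p, and other genes named there were chosen after their values were seen. The members, lists and tests were chosen with earlier results of these data known.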

Additional observations from a re-analysis of the deposited data

How the results depend on the processing

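With the 4 matched pairs of libraries as a block, an alternative chosen after seeing the data, 2 genes were higher and 14 lower with temperature, 21 higher and 1 lower with age, and 0 passed for hybrid. This block added SAUR67 and SAUR15 (−1.02, adjusted p = 0.0435) to the lower calls and removed SAUR15 from the age calls. Of 14 SAUR calls for temperature and 23 for age, 4 and 10 held under each alternative that tested them, and no call reversed. Raising the filter to 10 CPM left 1 gene higher and 7 lower with temperature, and 14 higher and 0 lower with age, with fewer genes tested. Thinning every library to the shallowest gave 1 higher and 5 lower for temperature, and 13 higher and 1 lower (SAUR78, not called otherwise) for age. With the library total as a covariate 4 were lower with temperature and 1 gene passed the age-by-temperature term, of which 5 passed with no filter. The cause of these 2 was not tested. Leaving out 1 library at a time gave 1 to 5 genes higher and 5 to 16 lower with temperature, 10 to 25 higher with age, and 0 to 20 lower in the age-by-temperature term. The hybrid, hybrid-by-temperature and hybrid-by-age counts stayed at 0 in the settings run. None of the counts of calls above has a share over all genes beside it. A swing particular to SAUR genes therefore cannot be read from them. The ratio of SAUR19-24 to SAUR1-16 counts without SAUR22 and SAUR14, an alternative chosen after seeing the data, was 1.33 to 2.35 times as high at 27 °C as at 22 °C. The shallowest library holds 642 SAUR counts, so low members such as SAUR15, SAUR41 and SAUR71 rest there on 0 or 1 count.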
